A study of Bos taurus with 6 samples.

Results

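The H3K4me3-dense megabase windows are stretches of 1 Mb on the cattle autosomes that were chosen by their number of H3K4me3 peak summits in cultured embryonic stem cells. Chromosomes 1 to 29 of the UMD3.1 assembly were cut into windows of 1 Mb from base 1, and a window was kept when it held 25 or more H3K4me3 summits in line A and 25 or more in line B. This gave 140 of 2529 windows (5.54%). They held 16547 of the 71674 autosomal summits of the 4 peak lists, and of 88657 summits in all. Because the H3K4me3 counts of both lines chose the windows, those counts are given as a description, and the H3K27me3 lists are the readout that the choice did not use.

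The cells were bovine embryonic stem cells, derived from blastocysts per the series title, of 2 independent lines called A and B, at passage 12. Both lines were cultured on mouse embryonic fibroblasts in a custom basal medium with FGF2 and IWR1, an inhibitor of WNT signalling, and were parted from the feeder cells with magnetic beads before chromatin was made. Each line gave 1 ChIP-seq library for H3K4me3 and 1 for H3K27me3, so n = 2 lines per mark. The inputs, 1 for each line, were not analysed here. Feeder chromatin left after the bead step was not measured, and pluripotency genes could not be checked in peak lists without an annotation of this assembly.

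H3K4me3 is trimethylation of lysine 4 of histone H3. It marks the start sites of active genes and of genes held ready, above all at CpG islands, so a stretch of the genome with many H3K4me3 peaks is usually one with many promoters. H3K27me3, trimethylation of lysine 27, is laid down by Polycomb repressive complex PRC2 and covers silent developmental genes. In pluripotent cells many CpG island promoters of such genes carry both marks, a state called bivalent. Genes and CpG islands were not analysed here, so the windows are described by position and by their peaks. The lists give for each peak 1 base, its summit, and a score on the −log10 scale of the peak caller (of p or q, which is unknown). They hold no read counts, so the depth of the libraries is unknown and scores are compared only within a list.

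The windows held 5307 of 19966 autosomal H3K4me3 summits of line A (26.6%), and 5730 of 20961 of line B (27.3%). Within the 140 windows the H3K4me3 count ran from 25 through a median of 36 to 78 in line A, and from 25 through a median of 37.5 to 91 in line B. The other 2389 windows held a median of 5 in each line, and 323 of them (line A) and 324 (line B) held none. The threshold cut through a continuous range, and 216 windows passed at 20 summits, 93 with H3K4me3 summits merged within 5 kb and 21 when only summits above the median score of a list were counted. In 9 windows just inside it the lower count of the lines was 25, with counts of 25 to 27 (line A) and 25 to 34 (line B). In 15 windows just outside the lower count was 24, with 24 to 26 and 24 to 30. Counted by line, 31 windows reached 25 in line B alone and 5 in line A alone. Both of these groups overlap the 15 windows just outside. The nearest H3K4me3 neighbour of a summit lay a median of 6.997 kb away inside the windows in line A, against 21.0 kb outside, and 6.43 kb against 20.5 kb in line B.

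The windows were spread unevenly over the genome. They occurred on 22 of the 29 autosomes and on none of chromosomes 1, 8, 9, 20, 24, 27 and 28. Chromosome 18 held 20 of them, chromosome 19 held 16, chromosome 7 held 14, chromosome 25 held 11 and chromosome 3 held 10. These 5 chromosomes carried 50.7% of the dense windows and 16.2% of all windows. Chromosome 11 had 9, chromosome 23 had 8, chromosomes 5 and 17 had 7 each, chromosome 29 had 6 and chromosome 2 had 5. As a share of a chromosome's own windows, chromosome 18 was highest at 29.9%, followed by chromosome 25 at 25.6% and chromosome 19 at 24.6%. On chromosome 18 the dense windows held 67.7% of all H3K4me3 summits in line A, and 68.2% for line B.

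Most dense windows lay next to another, and pooled over chromosomes they leaned towards the end with the higher coordinates. Of the 140 windows, 97 (69.3%) touched another dense window, in 77 runs of which 43 were single windows. The longest run was 12 windows on chromosome 18 from 46000001 to 58000000, with 529 H3K4me3 summits (line A) and 583 (line B) and 349 and 230 H3K27me3 summits. The next was 7 windows on chromosome 7 from 16000001 to 23000000, with 263 and 288 H3K4me3 and 181 and 108 H3K27me3 summits. Of the 4 runs of 4 windows, that at the start of chromosome 25, from base 1 to 4000000, held the most H3K4me3, with 197 and 201 summits, beside 146 and 78 of H3K27me3. For position, each chromosome, up to its last summit, was cut into 5 equal stretches. The stretch with the highest coordinates held 59 of the 140 windows (42.1%, 95% Wilson interval 34.3% to 50.4%) and 19.3% of the other windows. This interval covers counting error only, and windows of a run are not independent. The middle stretch held 16 (11.4%) and 20.3% of the other windows, and the one that starts at base 1 held 26 (18.6%) and 19.8%. The median position was 0.707 of the span for the dense windows and 0.496 for the others. Chromosomes differed in this. Dense windows lay at 4.0% to 46.7% of the span on chromosome 7 and at 14.3% to 60.0% on chromosome 23. On chromosome 29 they lay at 80.6% to 98.1%.

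**Figure D1:**
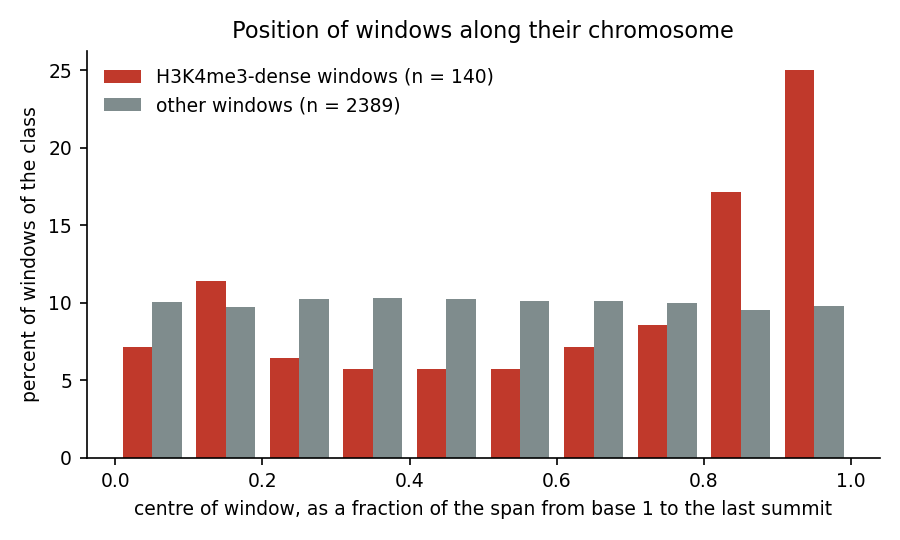
Position of the windows along their chromosome. The x axis gives the centre of each window as a fraction of the chromosome up to its last summit, in 10 equal bins, and the y axis the percent of the 140 H3K4me3-dense windows (red) and of the 2389 other windows (grey) in each bin; 25% of the dense windows fall in the last bin.

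Over all 140 windows H3K27me3 summits were also more frequent than in the other windows. Line A had 3307 H3K27me3 summits in them, 23.6 per window against 6.01 in the other windows, and line B had 2203, 15.7 per window against 4.55. The ratio was 3.93 and 3.46 in lines A and B (mean 3.69 ± 0.336, SD, n = 2), and 135 of the 140 windows (96.4%) lay above the median count of all autosomal windows in both lines, as did 35.9% of all windows. At the stricter limit of the 90th percentile in both lines, which 7.95% of all windows passed, 56 dense windows (40%) did so. The H3K27me3 count of a dense window ran from 0 through a median of 19.5 to 121 in line A, and from 0 through a median of 11 to 83 in line B. In both lines the other windows had a median of 2, yet reached further, to 340 and 298. At the threshold itself the order was the other way. The 9 windows just inside it had a median of 7 H3K27me3 summits (line A) and 6 (line B), and the 15 just outside had 14 and 8. The 31 windows that reached 25 in line B alone had 14 and 9, and the 5 that did so in line A alone had 20 and 16. Both groups share windows with the 15, so they are not separate observations. For each H3K4me3 summit there were 0.623 H3K27me3 summits (line A) and 0.384 (line B) inside the windows, against 0.979 and 0.714 outside. The H3K4me3 count that chose the windows is the denominator of this ratio, so nothing is read from it. No test was run on any of these contrasts, since each mark had 1 library per line and windows of one genome are not replicates of a condition.

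**Figure D2:**
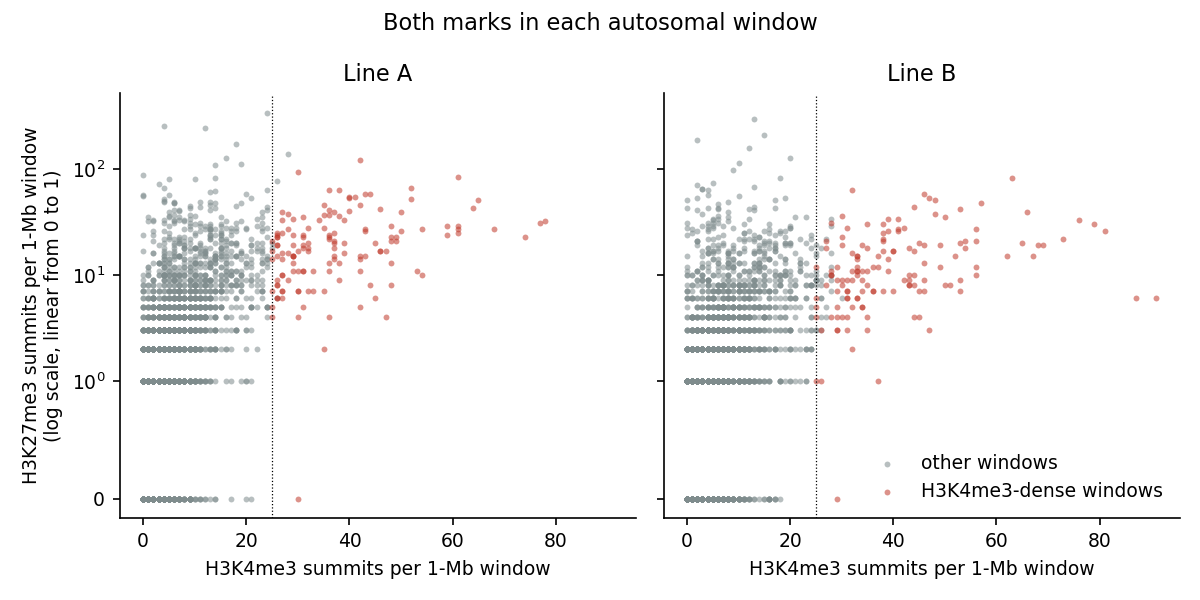
Summits of both marks in every autosomal window, line A on the left and line B on the right. The x axis gives H3K4me3 summits per 1-Mb window and the y axis H3K27me3 summits on a log scale that is linear from 0 to 1; red points are the 140 dense windows, grey points the other 2389, and the dotted line marks 25 H3K4me3 summits. Of the dense windows 1 lies at 0 H3K27me3 in both lines, and the highest grey points exceed all red ones.

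H3K27me3 regions were split by how closely the lines placed their summits. Chaining autosomal H3K27me3 summits of both lines up to 5 kb apart gave 398 regions with 5 or more summits in each line. In 152 of them the summits of the lines lay at almost identical bases, a median of at most 30 bases apart, and these are called position-locked. Of the 152, 7 (4.61%) lay in dense windows, 5 per 100 dense windows against 6.07 per 100 other windows, which is near the 5.54% of windows that are dense. They made up 3.45% (line A) and 4.58% (line B) of the H3K27me3 summits of the dense windows, against 27.8% and 32.2% in the other windows. In loose regions the median distance between lines was over 100 bases. Of 215 loose regions 52 (24.2%) lay in dense windows, 37.1 per 100 dense windows against 6.82 per 100 other windows. Their median width was 16.5 kb inside and 17.3 kb outside. Without the position-locked regions the ratio of H3K27me3 density was 5.26 and 4.86 in lines A and B.

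Mean H3K27me3 counts were higher in each higher class of H3K4me3 density. Grouping windows by the lower H3K4me3 count of the lines, the mean H3K27me3 count of line A was 1.72 with no H3K4me3 summit, 3.67 with 1 to 4, 5.88 with 5 to 9, 13.1 with 10 to 24, 20.1 with 25 to 39 and 30.8 with 40 or more. In line B the same classes gave 1.36, 2.85, 4.51, 9.70, 13.0 and 21.3. The 2 highest classes are the dense windows, 94 and 46 of them. The share of H3K4me3 summits with H3K27me3 within 1 kb did not climb with it. In the classes of 1 to 4 and 5 to 9 the share was 27.6% and 24.1% in line A and 21.0% and 20.0% in line B. From the class of 10 to 24 upwards it was 25.9%, 21.7% and 18.6% in line A and 21.5%, 17.4% and 16.0% in line B.

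**Figure D3:**
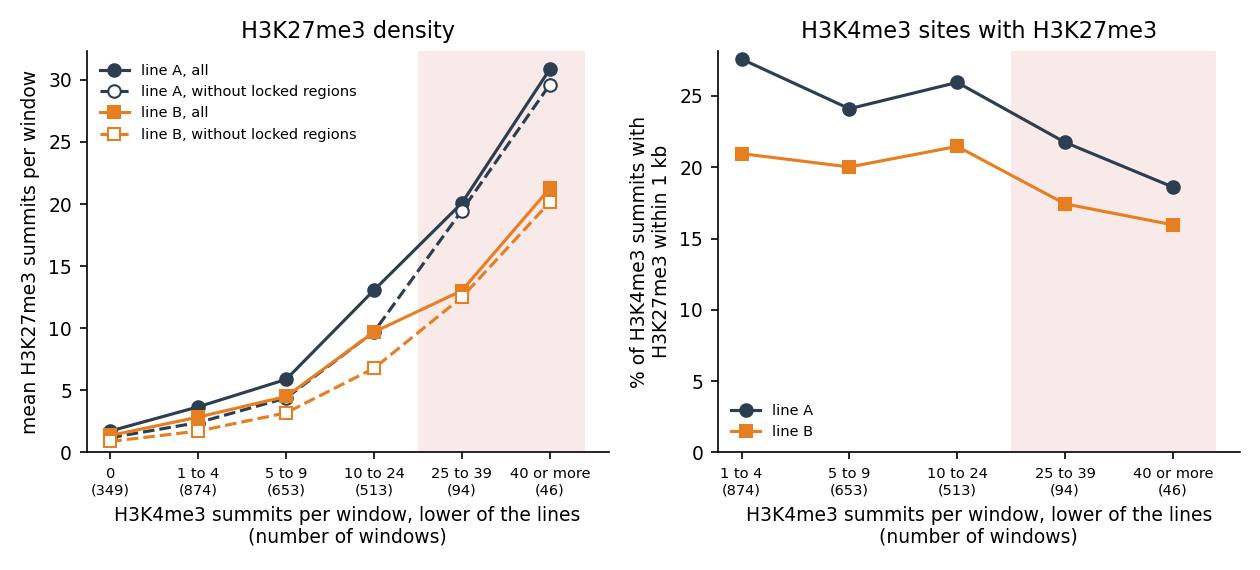
H3K27me3 by H3K4me3 density of the window. The x axes group windows by the lower H3K4me3 count of the lines, with the number of windows in brackets and the dense windows shaded; the left y axis is the mean H3K27me3 count per window, with all summits (solid) and without position-locked regions (dashed), and the right one the percent of H3K4me3 summits with H3K27me3 within 1 kb, where the class with no summit in one of the lines is left out. H3K27me3 per window is highest and the share of H3K4me3 summits with H3K27me3 lowest in the class of 40 or more.

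Fewer H3K4me3 sites of the dense windows carried both marks, as a share, than sites elsewhere. In line A 1080 of 5307 H3K4me3 summits (20.4%, Wilson interval 19.3% to 21.5%) had an H3K27me3 summit within 1 kb, against 3761 of 14659 (25.7%, 24.96% to 26.4%) in the other windows and 24.2% over all autosomes. In line B 961 of 5730 did (16.8%, 15.8% to 17.8%), against 3187 of 15231 (20.9%, 20.3% to 21.6%) and 19.8% over all autosomes. Dense minus other, this was −5.31 percentage points for line A and −4.15 for line B, and within 5 kb the mean of the lines was −2.06. These intervals cover counting error only, and neighbouring summits are not independent. The H3K4me3 summits counted here also chose the windows. Of them 40.9% (line A) and 42.7% (line B) had another H3K4me3 summit within 5 kb, against 29.9% and 29.5% in the other windows. Whether this set the lower share was not tested. The marks were read in separate libraries of pooled cells, and close summits need not lie on 1 chromatin fibre.

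The lower share held across most of the range of H3K4me3 scores. Summits of a list were split into 4 equal classes by score. In the highest class 59 of 1308 summits of the dense windows in line A had H3K27me3 (4.51%), against 9.22% elsewhere, and 33 of 1381 in line B (2.39%), against 6.22%. In the class below, the shares were 13.3% against 21.4% (line A) and 11.8% against 18.8% (line B), and in the next 28.8% against 35.5% and 25.1% against 31.9%. The lowest class differed least, at 33.7% against 36.8% (line A) and 26.5% against 27.2% (line B), where the Wilson intervals of 24.3% to 28.8% and 25.8% to 28.7% overlapped.

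**Figure D4:**
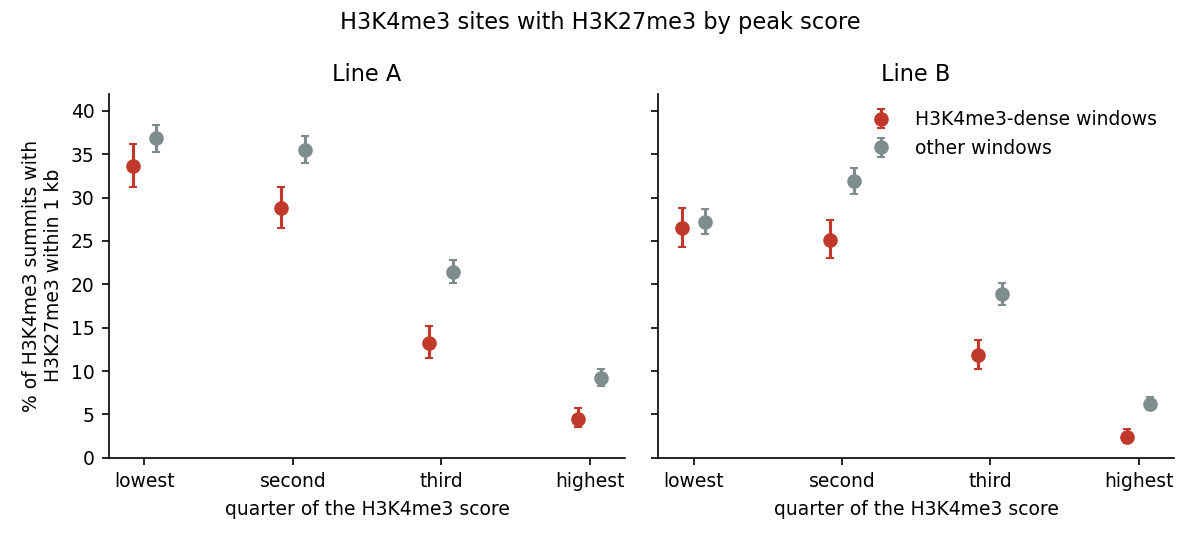
Percent of H3K4me3 summits with H3K27me3 within 1 kb (y axis) by score class of H3K4me3 (x axis), in the dense windows (red) and the other autosomal windows (grey), line A left and line B right; bars are 95% Wilson intervals. Red points lie below grey ones in all 4 classes of both lines, with overlapping intervals in the lowest class.

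Sites were also sorted by whether both lines carried H3K27me3. Of the 5089 H3K4me3 summits of line A in dense windows that line B shared, 681 carried H3K27me3 in each of the lines (13.4%, Wilson interval 12.5% to 14.3%) and 3965 in neither (77.9%). Another 339 carried it only in line A (6.66%) and 104 only in line B (2.04%). In the other windows 2406 of 13623 shared sites had H3K27me3 in both lines (17.7%, 17.0% to 18.3%) and 9907 in neither (72.7%). This made 4.86 such sites per dense window and 1.01 per other window, 4.83 times as many, while sites with H3K4me3 alone were 6.83 times as many, at 28.3 and 4.15 per window. These ratios per window count H3K4me3 sites, by which the windows were chosen, and are given as a description only.

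Seen from H3K27me3, more summits had H3K4me3 close by. In line A 1218 of 3307 H3K27me3 summits in dense windows (36.8%) lay within 1 kb of an H3K4me3 summit, against 29.7% in the other windows and 31.1% over all autosomes. In line B 1017 of 2203 did (46.2%), against 31.6% and 34.0%. Most of this gap went with the position-locked regions, without which the shares were 37.4% against 36.9% (line A) and 48.0% against 44.4% (line B). The mean difference of the lines was 10.8 percentage points, and 17.6 within 5 kb. With both marks cut to summits above their list's median score it was 2.16. The area also differed. Bases within 1 kb of an H3K4me3 summit made up 7.19% of the dense windows (line A) and 7.80% (line B), against 1.17% and 1.22% of the other windows. Within that area the dense windows had 121 H3K27me3 summits per Mb (line A) and 93.1 (line B), fewer than the 152 and 118 of the other windows. Outside it they had 16.1 and 9.19 per Mb, more than the 4.27 and 3.15 elsewhere. H3K27me3 was 7.53 times as dense near H3K4me3 as away from it in the dense windows of line A and 10.1 times in line B. In the other windows it was 35.7 and 37.3 times as dense, where the area away from H3K4me3 includes windows with no H3K4me3 summit. The H3K4me3 summits that chose the windows also set these areas, so these values are a description only.

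H3K27me3 summits were also counted by their distance from H3K4me3. In line A summits within 250 bases of H3K4me3 were 4.29 times as frequent per window as in the other windows, those from there to 1 kb 5.53 times, those at 1 to 5 kb 4.81 times and those at 5 to 20 kb 4.94 times. In line B these ratios were 4.65, 5.48, 4.98 and 3.89. The class up to 1 kb had the highest ratio in both lines. Beyond 20 kb from any H3K4me3 summit the ratio was 1.78 and 1.03 in lines A and B. The median distance of an H3K27me3 summit to H3K4me3 was 1973 bases inside and 3897 outside in line A, and 1191 and 4764.5 bases in line B. The H3K4me3 summits that set these distances also chose the windows. The ratios are per window, not per base at a given distance, so ratios and distances are a description only.

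Scores of H3K4me3 hardly set the windows apart. The median in line A was 36.7 inside and 39.2 outside, a log2 ratio of −0.09, and in line B 55.8 and 60.6, a log2 ratio of −0.12. Among summits above the list's median score the mean of the lines was 0.0099, the other direction. Of the summits in dense windows, 9.84% and 9.97% in lines A and B belonged to the top 10% of autosomal scores. The highest autosomal score of each line lay elsewhere, at a summit with H3K27me3 within 1 kb. The highest H3K4me3 score in a dense window was 191 and 551 in lines A and B, against 3033 and 11465 in the other windows. Among summits without H3K27me3 within 1 kb the maxima were 185 against 196 (line A) and 512 against 404 (line B). Where H3K27me3 lay within 1 kb, H3K4me3 scored lower in the dense windows, with a median of 19.0 against 23.9 (line A) and 27.2 against 37.6 (line B). Without H3K27me3 the medians were 43.8 against 47.2 and 66.9 against 71.8.

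H3K27me3 summits of the dense windows were weak. Their median score was 7.32 and 8.33 in lines A and B, against 13.5 and 15.2 in the other windows, and 1.69% and 2.18% of them reached the top 10% of autosomal scores, against 11.9% and 11.6%. Without the position-locked regions the medians came close, at 7.06 against 7.73 (line A) and 8.04 against 8.63 (line B). With H3K4me3 within 1 kb they were 10.1 against 12.4 (line A) and 10.2 against 9.87 (line B). Without it they were 6.33 against 14.7 and 7.09 against 31.5.

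Sharing of H3K4me3 between lines was somewhat higher than elsewhere for line A and slightly lower for line B. For line A, 95.9% of H3K4me3 summits had a partner in line B at most 1 kb away, against 92.9% in the other windows and 93.7% over all autosomes. In line B it was 87.9% against 88.8% and 88.6%. The H3K4me3 counts of both lines chose the windows, so this sharing is a description only. With the lists of both lines cut to summits above their median score, the mean difference of the lines was −0.84 percentage points, against 1.06 for all summits. H3K27me3 was shared by 55.3% of the summits of line A, against 68.4% in the other windows and 66.0% over all autosomes, and by 78.5% of those of line B, against 84.6% and 83.6%. Without the position-locked regions the shares were 53.8% against 58.3% (line A) and 77.5% against 77.8% (line B). Within 5 kb the mean difference of the lines in H3K27me3 sharing was −2.60 percentage points. Sharing went with the score. Outside position-locked regions, 85.8% of the H3K27me3 summits of line A above the median autosomal score were shared in the dense windows and 39.8% of those at or below it, beside 86.5% and 41.9% in the other windows. Line A had 1.5 times as many H3K27me3 summits as line B in the dense windows and 1.32 times as many elsewhere. Whether depth set this excess of line A was not tested, since the lists hold no reads.

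Across the 140 windows the lines gave like profiles of counts and shares, and less alike ranks of H3K27me3 score. The H3K27me3 counts had a Pearson r of 0.927 and a Spearman rho of 0.901 between lines, against 0.982 and 0.887 over the other windows. The share of H3K4me3 summits with H3K27me3 had an r of 0.827 between lines over the dense windows. The median H3K27me3 score of a window had an r of 0.816 but a rho of 0.555, over 139 windows. For the median H3K4me3 score these were 0.817 and 0.810. Within a line, H3K27me3 count against H3K4me3 count had a rho of 0.378 and 0.428 in lines A and B over the dense windows. Over the other windows this rho was higher, at 0.614 and 0.560. Pearson r went opposite ways in the lines. It was 0.296 in the dense and 0.333 in the other windows of line A, and 0.327 and 0.236 in line B. The H3K4me3 count also chose the windows, which limits its range in both groups of windows. Nothing is therefore read from the contrast of dense with other windows here. These correlations are descriptions across windows, which share libraries, and neighbouring windows are not independent. The share of H3K4me3 summits with H3K27me3 in a window ran from 0% through a median of 20.3% to 48.6% in line A and from 0% through a median of 14.9% to 49.2% in line B.

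**Figure D5:**
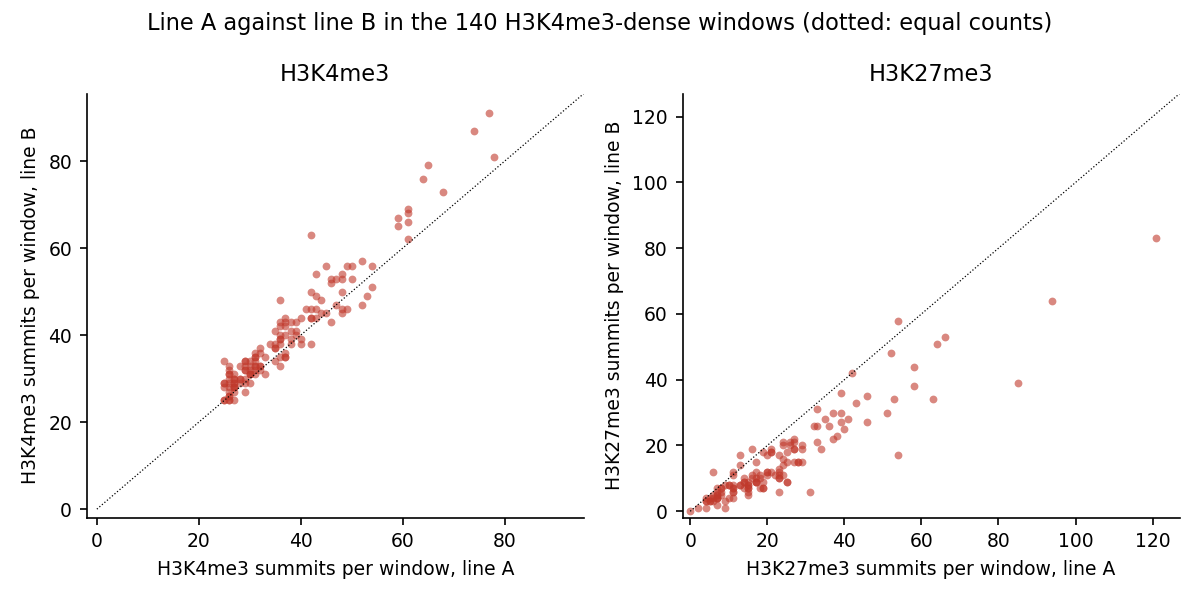
Summits per window in line A (x axis) and line B (y axis) for the 140 dense windows, H3K4me3 on the left and H3K27me3 on the right; each point is a window and the dotted line marks equal counts. H3K27me3 counts lie mostly below the line, up to 121 and 83 in lines A and B for the same window.

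Of the 10 windows richest in H3K4me3, 1 was among the 5 richest in H3K27me3. The window with the highest mean count lay on chromosome 23 at 30000001 to 31000000, with 77 H3K4me3 summits (line A) and 91 (line B) but 31 and 6 H3K27me3 summits. Its neighbour at 31000001 to 32000000 followed with 74 and 87 H3K4me3 and 23 and 6 H3K27me3 summits. In both windows line A had several times the H3K27me3 count of line B. Their median H3K4me3 scores were 16.5 and 18.4 in line A, where the lowest of the 140 windows was 16.5, and 38.9 and 37.2 in line B, where the lowest was 23.6. In the first window 13 of 77 H3K4me3 summits of line A (16.9%) and 4 of 91 of line B (4.40%) had H3K27me3 within 1 kb, and in its neighbour 6 of 74 (8.11%) and 3 of 87 (3.45%). The low values of line B rest on 6 H3K27me3 summits in each window.

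The other windows among the 10 highest were as follows. The window of chromosome 7 at 45000001 to 46000000 had 78 and 81 H3K4me3 summits in lines A and B and 32 and 26 H3K27me3 summits, and that of chromosome 19 at 27000001 to 28000000 had 68 and 73 beside 27 and 22. At the very end of its chromosome, the window of chromosome 17 at 74000001 to 75000000 had 64 and 76 H3K4me3 and 43 and 33 H3K27me3 summits. Chromosome 18 gave 4 of the 10, at 62000001 to 63000000 with 65 and 79 H3K4me3 summits, at 53000001 to 54000000 with 61 and 69, at 56000001 to 57000000 with 61 and 68, and at 55000001 to 56000000 with 59 and 67. Their H3K27me3 counts were 51 and 30 in the first and 27 to 29 (line A) and 15 to 19 (line B) in the others. In the window that starts at 62000001, 20 of 65 H3K4me3 summits of line A (30.8%), and 17 of 79 of line B (21.5%) had H3K27me3 within 1 kb.

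The window of chromosome 25 at 2000001 to 3000000 was among the highest for both marks, with 61 and 66 H3K4me3 and 85 and 39 H3K27me3 summits. It holds the widest H3K27me3 region of all dense windows, a loose one of 86.4 kb at 2589210 to 2675654 with 37 summits (line A) and 20 (line B). The window richest in H3K27me3 was on chromosome 3 at 21000001 to 22000000, with 121 and 83 H3K27me3 summits. There 19 of 42 H3K4me3 summits of line A (45.2%), and 31 of 63 of line B (49.2%) had H3K27me3 within 1 kb, the highest share of any dense window in line B. Next came chromosome 18 at 63000001 to 64000000, with 94 and 64 H3K27me3 summits beside only 30 and 32 of H3K4me3. Its H3K27me3 lay mostly away from H3K4me3, with 8 of 94 and 11 of 64 summits within 1 kb of it. The window of chromosome 26 at 21000001 to 22000000 had 64 and 51, and its H3K4me3 summits carried H3K27me3 at 15 of 36 (line A) and 21 of 48 (line B).

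The window of chromosome 7 at 12000001 to 13000000 was of another kind. It had 66 and 53 H3K27me3 summits, of which 52 and 46 belonged to 1 position-locked region of 68.8 kb at 12079348 to 12148174, and its median H3K27me3 score was 103 and 146 in lines A and B. No other window of those named for their H3K27me3 had more than 1 such summit in a line.

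At the other end, the window of chromosome 3 at 19000001 to 20000000 held no H3K27me3 summit in either line, with 30 and 29 H3K4me3 summits. It lies 1 window away from the window richest in H3K27me3, in the same run of 3 dense windows. Its H3K4me3 was strong, with medians of 58.0 and 103 in lines A and B. The window of chromosome 10 at 21000001 to 22000000 had 2 and 1 H3K27me3 summits beside 35 and 37 of H3K4me3, and that of chromosome 21 at 22000001 to 23000000 had 4 and 1 beside 25 and 25. The neighbouring windows of chromosome 22 at 50000001 to 51000000 and 51000001 to 52000000 had 4 and 3 H3K27me3 summits each, beside 30 and 31 and 47 and 47 of H3K4me3.

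Chromosomes differed in the H3K27me3 that their dense windows held. The 20 dense windows of chromosome 18 had a mean of 33.9 H3K27me3 summits (line A) and 20.8 (line B), and held 67.8% and 66.9% of the H3K27me3 summits of that chromosome. The 14 of chromosome 7 had 27.9 and 18.9, and the 11 of chromosome 25 had 27.6 and 17.5. The 16 of chromosome 19 had 19.1 and 14.4. The 8 of chromosome 23, with the highest H3K4me3 density at 47.8 and 53.9 per window, had 16.9 and 8.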

How the data were processed

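H3K4me3 and H3K27me3 were profiled in bovine embryonic stem cells of lines A and B, with 1 library per mark and line. Per the submitters' processing notes, reads were aligned with BWA to UMD3.1 and peaks were called with MACS2, with no versions. The peak names in the files contain BAMPE, the paired-end mode of MACS2. Each library has its own list. Use of the inputs as control, filters and narrow or broad calling were left unstated in the labels and headers used.

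The deposited scores were taken to be −log10 values of the peak caller, from the range of the values (smallest autosomal score 2.00); whether of p or of q is unknown. The deposited positions (other unit) are summits of 1 base, printed counted from 1. Depth is unknown.

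Summits on chromosomes 1 to 29 were counted in windows of 1000000 bases up to the last summit of any list. Overlap meant a distance of at most 1000 bases. Shares carry 95% Wilson intervals. Named windows were the 10 highest in H3K4me3, the 5 highest and 5 lowest in H3K27me3 and the 3 longest runs. Chromosomes with 5 or more dense windows were named, and others listed where none occurred. The widest H3K27me3 region of a named window was singled out after its values were seen. The windows, lists and limits, including 30 and 100 bases for position-locked and loose regions, were chosen with earlier results of these data known. No significance test was run. The functions were tested on simulated lists. No genome of UMD3.1 was used, so no sequence or gene is given. Computation used pandas 2.3.3 and numpy 2.4.6 under Python 3.11.15, with scipy 1.17.1 for intervals and matplotlib 3.10.9 for plots.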

Additional observations from a re-analysis of the deposited data

Results flagged for a closer look

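The lines went opposite ways in how often H3K4me3 summits were shared. In line A the share with a summit of line B within 1 kb was 2.96 percentage points higher in the dense windows than in the other windows, while in line B the difference was −0.84. The difference between the lines was not tested. The H3K4me3 summits compared here also chose the windows, so these shares are a description only. Among summits at or below the median autosomal score, the shares inside and outside were 92.8% and 86.6% in line A and 77.2% and 78.2% in line B. Above the median, with a partner of any score, they were 99.2% and 99.1% in line A and 99.5% and 99.1% in line B.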

How the results depend on the processing

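Of 92 alternatives, 56 stayed within the spread of the lines, the interval or 1.5 times a count, 34 moved further and 2 reversed. The rule gave 140 windows, and 216 with 20 or more summits, 93 with H3K4me3 merged within 5 kb and 21 when only summits scoring above their list's median were counted. From 1 line alone it gave 145 to 171. The H3K27me3 density ratio, 3.69, was 4.11 with 30 or more summits, 2.57 above the median score, 3.29 against other windows with H3K4me3, 5.06 without position-locked regions, 4.68 with H3K27me3 merged within 5 kb, and 3.33 to 4.16 from 1 line.

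The difference in H3K4me3 summits with H3K27me3 was −4.73 percentage points, and −4.71 to −3.32 from 1 line. It was −3.66 with both marks cut to summits above their list's median score, −3.29 without position-locked regions and −2.06 within 5 kb. That in H3K27me3 summits with H3K4me3, 10.8, was 2.16, 2.08 and 17.6 under these settings and 6.01 to 17.2 from 1 line. The difference in H3K27me3 sharing, −9.62, was −2.35 without position-locked regions and −2.60 within 5 kb. That in H3K4me3 sharing, 1.06, reversed to −0.84 with the lists of both lines cut to summits above their median score.

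The log2 ratio of median H3K4me3 scores, −0.11, was −0.054 with 20 or more summits, −0.16 with 30 or more, −0.076 with windows shifted by 500 kb, −0.147 to −0.094 from 1 line, and reversed to 0.0099 above the median score. That of H3K27me3 scores, −0.87, was −0.84, −0.83 and −0.91 under the first 3 settings, −1.45 above the median score, −0.89 without the last windows, −0.63 against the same chromosomes, −0.85 against windows with H3K4me3, −0.12 without position-locked regions and −0.89 to −0.76 from 1 line. The spread of the lines was 0.0081 there, so small shifts counted as moved. The cause of these shifts was not tested, except that a higher score limit leaves fewer summits by construction. Sharing between lines cannot be had from 1 line. Differences were taken within each line, and no test, paired by line or not, was run.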

Other observations

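The rule covered autosomes. Of 149 windows of the X chromosome, 4 also held 25 or more H3K4me3 summits in each line. At 40000001 to 41000000 there were 34 and 31 H3K4me3 summits in lines A and B beside 74 and 68 of H3K27me3. At 92000001 to 93000000 there were 28 and 31 beside 62 and 74. The neighbouring windows at 94000001 to 95000000 and 95000001 to 96000000 had 26 and 25 and 29 and 29 H3K4me3 summits beside 167 and 143 and 116 and 105 of H3K27me3.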
